A study of Homo sapiens with 6 samples.

Results

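The KRAB zinc finger gene clusters of human chromosome 19 were examined in ChIP-seq peak lists from NCI-H526, a small cell lung cancer cell line. The regions were the distinct intervals of 4 lists that overlapped 5 stretches of chromosome 19 (hg19), numbered here from the short-arm side: cluster 1 from 19.8 to 24.4 Mb, cluster 2 from 36.6 to 38.4 Mb, cluster 3 from 44.3 to 45 Mb, cluster 4 from 52.4 to 54.0 Mb and cluster 5 from 56.6 to 58.9 Mb. They held 844 of the 271093 distinct intervals in all lists, or 0.311%, and 8.90% of the 9488 on chromosome 19. None of them crossed a cluster boundary. The clusters add up to 11 Mb and were compared with the other 43.1 Mb of chromosome 19 above 5 Mb, called the rest of the chromosome below.

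Each group was a single library of NCI-H526 cells, and no group had a replicate. LSD1 was mapped in cells given DMSO, the vehicle, and in cells given the LSD1 inhibitor that the labels call GSK552. The treatment field names GSK2879552, at 1 µM for 24 hours, and stands with every sample. The histone marks H3K4me2 and H3K4me1 were mapped in cells given DMSO. The 6 samples included 2 input libraries, not used here, and no histone list from treated cells was analysed here. Of the 844 intervals, 147 belonged to LSD1 with DMSO (of 45188 in that list), 186 to LSD1 with inhibitor (of 49597), 416 to H3K4me2 (of 81619) and 95 to H3K4me1 (of 94689). No p-value can be given, since each comparison is made within the list of 1 library or between single libraries. Intervals in parentheses are 95% intervals (exact for densities, Wilson for shares, Newcombe for differences of shares) for counting error only, taken as if neighbouring intervals were independent. Differences between the peak shares of the 2 LSD1 lists also take these lists as independent, although many of their peaks overlap.

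As background, KRAB zinc finger proteins are a large family of DNA-binding repressors. Their KRAB domain recruits TRIM28 (KAP1), which brings the H3K9 methyltransferase SETDB1, and many members bind transposable elements. The genes arose by tandem duplication and sit side by side, and their own bodies and 3′ ends are known to carry H3K9me3. LSD1 (KDM1A) removes methyl groups from mono- and dimethylated H3K4. H3K4me1 marks enhancers and the flanks of promoters, and H3K4me2 marks both enhancers and promoters. In the RefSeq gene table (GRCh38), 255 of 538 protein-coding genes with a ZNF or ZFP symbol were on chromosome 19, or 47.4%, against 7.23% of all 20056 protein-coding genes. In gene order, 18 runs of at least 5 such neighbours held 200 of them, of which the longest ran from ZNF737 to ZNF681 with 27 genes. Some runs, such as the 11 genes from ZNF699 to ZNF846 and the 24 from ZNF627 to ZNF791, lie on the short arm outside the 5 stretches as background knowledge has it, so the rest of the chromosome is not free of zinc finger genes. Since this table and the peak lists use different genome builds, no gene is named at a peak.

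The clusters were poor in H3K4me1 and less so in H3K4me2 and LSD1. H3K4me1 was called 8.64 times per Mb in the clusters (6.99 to 10.6) and 42.6 times per Mb in the rest, a ratio of 0.203 (0.163 to 0.249). H3K4me2 was called 37.8 times per Mb (34.3 to 41.6) against 56.9, a ratio of 0.665 (0.598 to 0.738). LSD1 with DMSO had 13.4 peaks per Mb (11.3 to 15.7) against 31.9, a ratio of 0.419 (0.351 to 0.497), and LSD1 with inhibitor had 16.9 (14.6 to 19.5) against 34.0, a ratio of 0.497 (0.425 to 0.580). The ratio to the rest was thus lowest for H3K4me1 and highest for H3K4me2, and the intervals of these 2 ratios overlapped no other. There were 4.38 H3K4me2 intervals for each H3K4me1 interval in the clusters, 1.33 in the rest of the chromosome and 0.862 over all chromosomes. By covered length, H3K4me2 took 31.5 kb per Mb in the clusters and 44.0 in the rest, and H3K4me1 took 4.79 and 28.3.

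**Figure D1:**
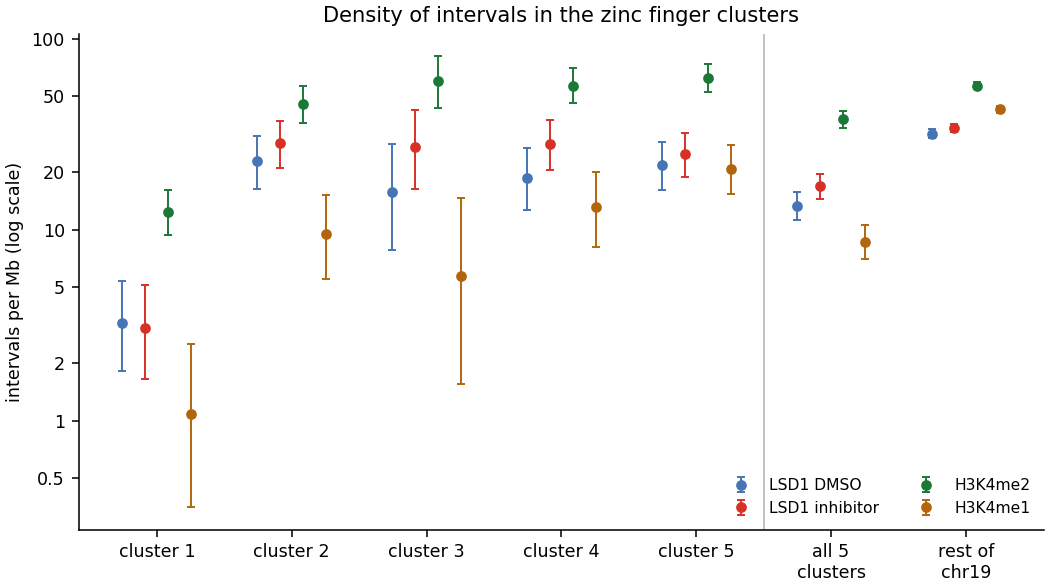
Intervals per Mb (log axis) in each of the 5 clusters, in all 5 together and in the rest of chromosome 19 above 5 Mb, for the 4 lists; points are densities of single libraries and bars are exact 95% intervals that cover counting error only. H3K4me1 lies below H3K4me2 in every cluster, and cluster 1 is low in every list, while in the rest of the chromosome the points for both marks lie close together (56.9 and 42.6 per Mb).

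Cluster 1, the longest at 4.6 Mb and the one next to the centromere, stood apart from the others. It held 15 LSD1 peaks with DMSO, 14 with inhibitor, 57 H3K4me2 intervals and 5 H3K4me1 intervals, or 3.26, 3.04, 12.4 and 1.09 per Mb. In clusters 2, 3, 4 and 5, H3K4me2 reached 45.6, 60.0, 56.9 and 62.6 intervals per Mb. Set against the rest of the chromosome, the H3K4me2 ratio was 0.218 in cluster 1 (0.165 to 0.283), 0.801 in cluster 2 (0.635 to 0.998), 1.06 in cluster 3, 1.00 in cluster 4 and 1.10 in cluster 5 (0.924 to 1.30). The rest includes 3.39 Mb of an empty stretch, which raises these ratios. Without that stretch the H3K4me2 ratio of all 5 clusters was 0.613 against 0.665, and the ratios by cluster were not recalculated. With the stretch included, the lower H3K4me2 density of the clusters as a whole rested mostly on cluster 1. Without cluster 1 the ratio was 0.986 (0.881 to 1.10), although cluster 2 also lay below the rest. H3K4me1 behaved otherwise. Its density was 9.44 per Mb in cluster 2, 5.71 in cluster 3, 13.1 in cluster 4 and 20.9 in cluster 5, ratios of 0.222, 0.134, 0.308 and 0.490 (0.360 to 0.652), so each cluster lay below the rest. Without cluster 1 the H3K4me1 ratio was 0.330 (0.264 to 0.408). Leaving out cluster 1 also moved the LSD1 ratios, to 0.647 with DMSO and 0.790 with inhibitor.

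LSD1 with DMSO had 41, 11, 30 and 50 peaks in clusters 2 to 5, or 22.8, 15.7, 18.8 and 21.7 per Mb. With inhibitor the same clusters had 51, 19, 45 and 57 peaks, or 28.3, 27.1, 28.1 and 24.8 per Mb. The inhibitor list was longer than the DMSO list by a factor of 1.10 over all chromosomes and 1.07 in the rest of chromosome 19. In all 5 clusters the factor was 1.27, and by cluster it was 0.933, 1.24, 1.73, 1.5 and 1.14, with cluster 3 based on 11 and 19 peaks. No source used here gives the depth of the libraries, and its part in these counts was not tested.

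**Figure D2:**
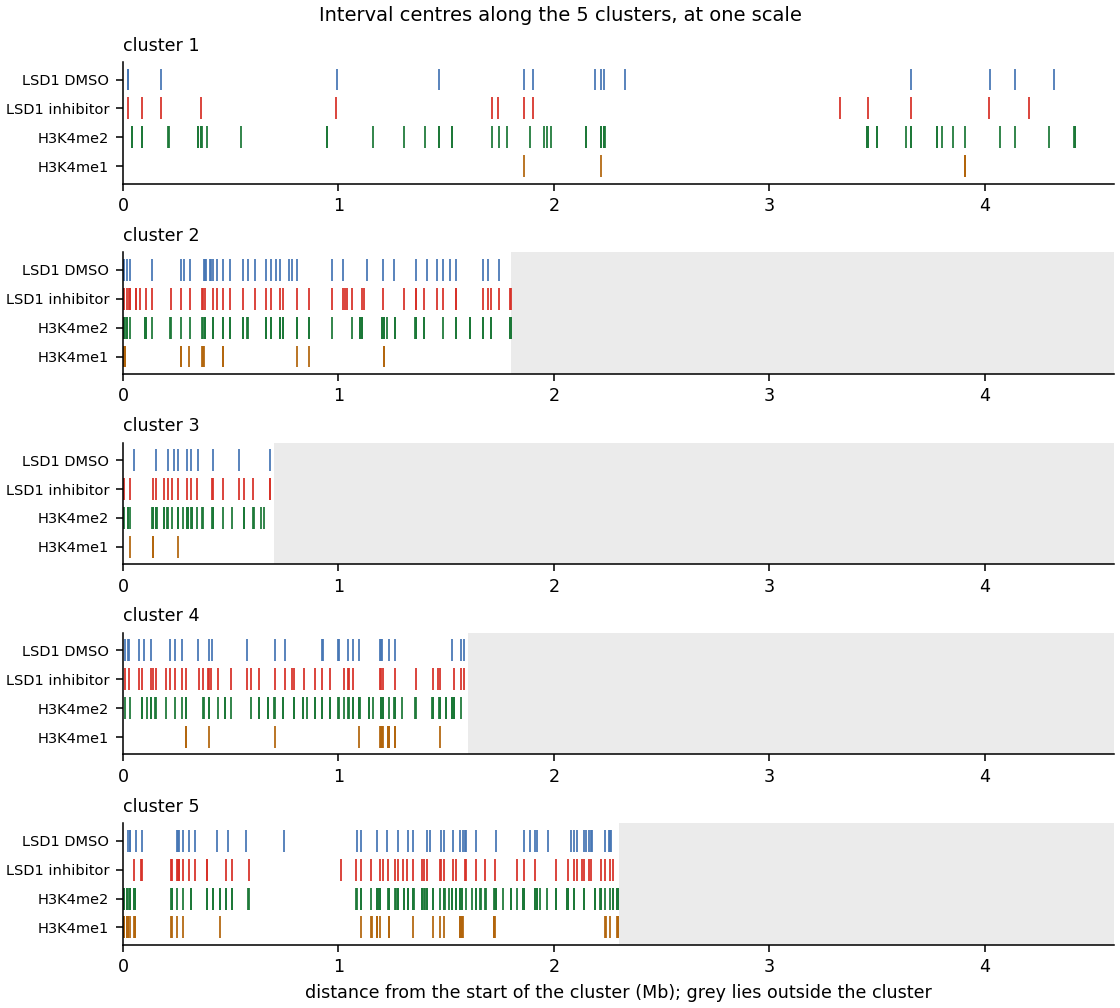
Centres of the intervals of the 4 lists along the 5 clusters, all drawn to one scale as distance from the start of each cluster in Mb; grey areas lie outside a cluster. Wide stretches of clusters 1 and 5 hold few or no ticks of any list, and H3K4me1 ticks are few and gathered in a few places, while H3K4me2 ticks are spread along clusters 2 to 5.

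Gaps without any interval were long in cluster 1. Its longest stretch without H3K4me2 ran 1218 kb, at chr19:22035252-23253390, and its longest stretch without LSD1 ran 1326 kb with DMSO and 1426 kb with inhibitor. Cluster 5 had a stretch of 499.9 kb without H3K4me2 at chr19:57183148-57683017. In the other 3 clusters the longest stretch without H3K4me2 was between 93.2 and 104 kb. Over 110 windows of 100 kb, 81 held no H3K4me1 (73.6%) and 27 held no H3K4me2 (24.5%), against 132 (30.6%) and 94 (21.8%) of 431 windows in the rest of the chromosome. Cluster 1 gave 43 of the 81 windows without H3K4me1 and 22 of the 27 without H3K4me2, and cluster 5 gave the other 5 without H3K4me2. Windows without H3K4me1 were thus more common in the clusters. For H3K4me2 the shares are not directly comparable, because the 431 windows include 3.39 Mb of an empty stretch. That stretch, at chr19:24218142-27789556, holds no interval of any list, and the windows were not recounted without it.

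H3K4me1 in the clusters was gathered in few places. The 5 richest windows held 43 of its 95 intervals (45.3%), whereas the 5 richest windows for H3K4me2 held 59 of 416 (14.2%). When H3K4me1 intervals were joined over gaps of up to 10 kb they formed 43 runs, 21 of them a single interval, and the 3 largest runs held 23 intervals (24.2%). The largest, in cluster 4 at chr19:53594548-53605919, held 9 H3K4me1 and 8 H3K4me2 intervals and 3 LSD1 peaks in each list. A run near the start of cluster 5, at chr19:56616806-56631827, held 7 H3K4me1 and 4 H3K4me2 intervals, with 2 LSD1 peaks with DMSO and 0 with inhibitor. The third, at chr19:58162064-58176245 in cluster 5, also held 7 H3K4me1 and 4 H3K4me2 intervals, with 1 LSD1 peak with DMSO and 0 with inhibitor. Part of this gathering lay at the boundaries: the outer 100 kb at each end of the clusters make up 9.09% of their length and held 25 of 95 H3K4me1 intervals (26.3%), 61 of 416 H3K4me2 intervals (14.7%), 26 of 147 LSD1 peaks with DMSO (17.7%) and 34 of 186 with inhibitor (18.3%). Without these outer parts, the H3K4me1 ratio to the rest was 0.164 (0.128 to 0.209).

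H3K4me2 intervals in the clusters mostly lacked H3K4me1. Of the 416, 71 shared at least 1 bp with an H3K4me1 interval, or 17.1%, against 47.4% of 2452 in the rest of the chromosome and 63.1% over all chromosomes. The difference from the rest was -30.4 points (-34.2 to -26.0), and -8.64 points (-10.7 to -5.92) when a reciprocal overlap of 50% was asked. By cluster the counts were 2 of 57 in cluster 1, 13 of 82 in cluster 2, 3 of 42 in cluster 3, 16 of 91 in cluster 4 and 37 of 144 in cluster 5, or 3.51, 15.9, 7.14, 17.6 and 25.7%. Each of these was below the share in the rest. In the other direction, 71 of the 95 H3K4me1 intervals overlapped H3K4me2, or 74.7% (65.2 to 82.4), against 64.2% in the rest (10.5 points higher, 0.680 to 18.5) and 47.4% over all chromosomes. The H3K4me1 that was called in the clusters thus lay on H3K4me2 in most cases. It was also weaker and narrower than in the rest, with a median width of 330 bp against 417 and a median −log10 q of 5.58 against 6.41.

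H3K4me2 itself was not weaker in the clusters. The median interval was 603.5 bp wide, against 488 in the rest and 411 over all chromosomes, and 145 of 416 were at least 1 kb wide (34.9%, against 28.2% in the rest). The authors' fold enrichment, a ratio over the caller's background, had a median of 7.38 against 6.71, and the median −log10 q was 12.9 against 11.1. More than 1 summit was listed for 213 intervals (51.2%), against 44.3% in the rest. Of the 416 intervals, 76 were among the highest-scoring 10% of the whole list (18.3%), against 15.1% in the rest. The clusters differed in this, since 28 of 91 in cluster 4 were among them (30.8%) and 0 of 57 in cluster 1. Median widths were 402, 875, 872, 838 and 490 bp in clusters 1 to 5.

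The lack of H3K4me1 was seen at every width. The H3K4me2 list was split into quartiles of width over all chromosomes, with bounds at 230, 411 and 968.5 bp, into which 87, 82, 98 and 149 of the cluster intervals fell. H3K4me1 overlapped 8.05, 11.0, 14.3 and 27.5% of them from the narrowest to the widest, against 30.6, 38.5, 44.2 and 69.4% in the rest. Weighting the rest to the clusters' widths gave a difference of -32.2 points. With H3K4me2 intervals joined over gaps of up to 2 kb into sites, there were 209 sites in the clusters, 19 per Mb against 25.6, with a median width of 1779 bp against 1717. Of these sites, 50 held H3K4me1 (23.9%), against 62.5% in the rest. Neighbouring sites were a median of 31.5 kb apart in the clusters and 20.2 kb in the rest, from 23.8 kb in cluster 3 to 68.8 kb in cluster 1.

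The strongest H3K4me2 intervals illustrate these values. In cluster 2 the interval at chr19:36601472-36606125 was both the highest-scoring and the widest of its cluster, at 4654 bp with 12 summits, a fold of 17.6 and rank 168 in the whole list. It carried H3K4me1 (fold 9.20) and LSD1 in both lists, and lies at the cluster's edge. In cluster 4 the interval at chr19:53634307-53636527 had a fold of 24.3 and rank 177, with H3K4me1 and an LSD1 peak with DMSO (fold 3.61). The cluster 5 interval at chr19:57703199-57704945 had a fold of 23.7 and rank 907. In cluster 3 the interval at chr19:44331475-44332758 had a fold of 20.9 and rank 1074, and its LSD1 peak was in the inhibitor list only. In cluster 1 the leading interval, at chr19:21787080-21787571, had a fold of 10.0 and rank 13992, with no H3K4me1 and no LSD1. All 5 leaders except that of cluster 1 overlapped some H3K4me1, unlike most H3K4me2 intervals in these clusters.

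**Figure D3:**
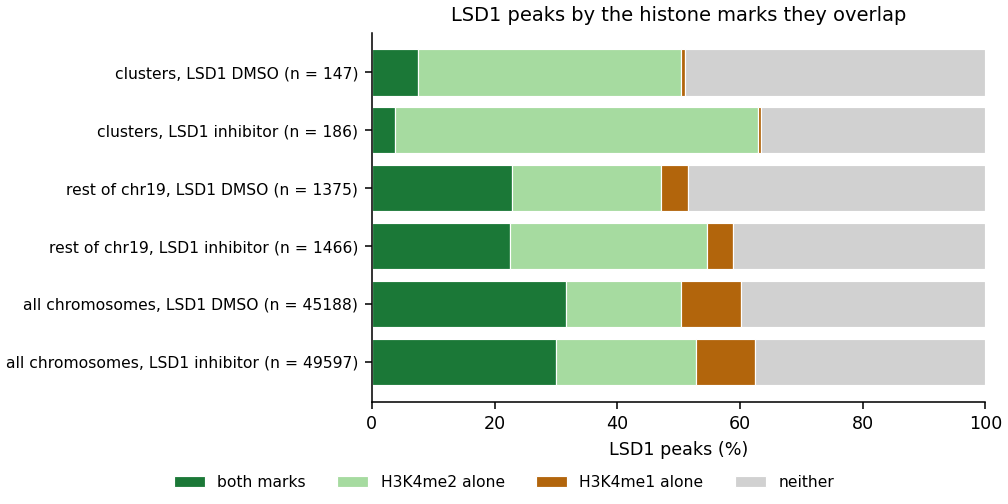
Percent of LSD1 peaks that overlapped both marks, H3K4me2 alone, H3K4me1 alone or neither, in the clusters, the rest of chromosome 19 and all chromosomes, for each LSD1 list; n is the number of peaks. In the clusters the share on H3K4me2 alone is large (42.9% with DMSO and 59.1% with inhibitor) and the share on both marks is small (7.48% and 3.76%).

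Most LSD1 peaks in the clusters lay on H3K4me2 without H3K4me1 or on neither mark. With DMSO, 74 of 147 overlapped H3K4me2, or 50.3% (42.4 to 58.3), against 47.1% in the rest and 50.4% over all chromosomes. This difference of 3.29 points (-5.13 to 11.7) was not detectable at this number of peaks. On H3K4me1 lay 12 of 147, or 8.16% (4.73 to 13.7), against 27.3% in the rest and 41.5% over all chromosomes, a difference of -19.2 points (-23.4 to -13.2), or -5.48 points with a reciprocal overlap of 50%. Split by both marks, 11 peaks were on both (7.48%), 63 on H3K4me2 alone (42.9%), 1 on H3K4me1 alone and 72 on neither (49.0%). In the rest of the chromosome these shares were 22.9, 24.1, 4.44 and 48.5%. The share on H3K4me2 alone was 18.7 points higher in the clusters (10.6 to 27.1), and the share on neither mark differed by 0.47 points (-7.91 to 8.90).

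With inhibitor, 117 of 186 LSD1 peaks overlapped H3K4me2, or 62.9%, against 54.6% in the rest and 52.9% over all chromosomes, a difference of 8.26 points from the rest (0.691 to 15.4). On H3K4me1 lay 8 of 186, or 4.30%, against 26.7% in the rest and 39.5% over all chromosomes (-22.4 points, -25.5 to -17.8). There were 110 peaks on H3K4me2 alone (59.1%), 7 on both marks, 1 on H3K4me1 alone and 68 on neither (36.6%). Compared with DMSO, the share on H3K4me2 alone was 16.3 points higher (5.47 to 26.6) and the share on neither mark 12.4 points lower (-22.8 to -1.74). The rest moved the same way, from 24.1 to 32.2% on H3K4me2 alone and from 48.5 to 41.1% on neither, and whether the shift differs between clusters and rest was not tested. The marks were mapped with DMSO only, so these shares place inhibitor peaks on the marks of untreated cells.

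Most LSD1 peaks outside H3K4me2 were more than 5 kb from it. With DMSO, the 73 such peaks lay a median of 12.3 kb from the nearest H3K4me2 interval, against 5.93 kb in the rest. Of them, 6 were within 1 kb (8.22%, against 18.8% in the rest) and 59 were more than 5 kb away (80.8%, against 53.4%). With inhibitor, 69 peaks lay outside H3K4me2, at a median of 12.0 kb against 5.38 kb in the rest; 15 were within 1 kb (21.7%, against 22.4% in the rest) and 48 more than 5 kb away (69.6%, against 51.1%). To the nearest H3K4me1 interval, the median over all LSD1 peaks was 41.3 kb with DMSO and 49.2 kb with inhibitor, against 2.83 and 1.77 kb in the rest. Both marks were also sparser in the clusters, and the part of this in the distances was not tested.

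The LSD1 peaks of the clusters had median widths and scores near those of the rest, with fewer wide peaks in the inhibitor list. With DMSO the middle 50% of widths ran from 274.5 to 804.5 bp in the clusters and from 282 to 847.5 bp in the rest, and with inhibitor the median width was 427.5 bp and 416 bp. Peaks of at least 1 kb made up 22 of 147 in the clusters and 264 of 1375 (19.2%) in the rest with DMSO, and 8.60% (16 of 186) and 16.8% with inhibitor. The median −log10 q was 1.81 in the clusters against 1.80 in the rest with DMSO, and 2.64 against 2.83 with inhibitor. The background implied by each peak's fold and p-value, relative to the median of its list, was 1.02 in the clusters and 0.990 in the rest with DMSO, 1.00 in both for H3K4me2, and 1.05 and 1.20 for H3K4me1. With inhibitor it was 1.27 and 1.10, so that background stood above the list's median, more so in the clusters. It could be solved for 93.0% of inhibitor peaks in the clusters and 90.5% in the rest, and for all peaks of the other lists. Its part in the inhibitor results was not tested.

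The 10 highest-scoring LSD1 peaks with DMSO in the clusters had folds between 3.74 and 7.88 and ranks from 180 to 5950 in the whole list. Of these 10, 9 were also in the inhibitor list, against 58.5% of all 147 cluster peaks with DMSO and 63.2% over all chromosomes. With every list cut to its 50% highest scores, that share differed from the rest by -10.4 points (-23.0 to 2.59), within counting error. Of the 10 peaks, 5 lay on H3K4me2, 2 on H3K4me1 and 5 on neither mark. The highest, at chr19:56859719-56860038 in cluster 5, was 320 bp wide with a fold of 7.88 and rank 180. With inhibitor a peak at almost the same place had a fold of 8.25 and rank 141, and neither mark was called nearer than 9.13 kb. The second, at chr19:36600239-36602470 in cluster 2, was 2232 bp wide with a fold of 6.02 and rank 329, and it overlapped the wide H3K4me2 interval at that cluster's edge. Its inhibitor peak had a fold of 5.32 and rank 1803. In cluster 5 the peak at chr19:58514104-58514763 (fold 5.66) and in cluster 2 the one at chr19:36618719-36619624 (fold 4.67) lay on H3K4me2 and not on H3K4me1.

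Of the 10 highest peaks, 5 had neither mark, a share near the 49.0% of all 147 cluster peaks with DMSO. Over all 72 peaks with neither mark the median −log10 q was 1.77. It was 3.16 for the 11 on both marks and 1.77 for the 63 on H3K4me2 alone. Besides the leading one, the peak at chr19:56904942-56905384 in cluster 5 had a fold of 3.74 and rank 4213 with DMSO, and a fold of 5.74 and rank 1506 with inhibitor. In cluster 3 the 2818 bp peak at chr19:44979034-44981851 had a fold of 5.01 and rank 4582 with DMSO, and a fold of 7.06 and rank 1929 with inhibitor, and lay 21.4 kb from the nearest H3K4me2 interval. The peak at chr19:21660306-21660669, the highest of cluster 1 with a fold of 4.93, had H3K4me1 0.316 kb away and H3K4me2 28.0 kb away. The last of these 5, at chr19:56934665-56936331 in cluster 5, had a fold of 4.78. All 5 were in both LSD1 lists, as were 29 of the 72 peaks with neither mark. Ranks come from lists of different length, so they are given side by side and show no change.

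The LSD1 lists shared fewer peaks here as a share of the inhibitor list. With DMSO, 86 of 147 cluster peaks overlapped an inhibitor peak, or 58.5%, against 57.9% in the rest (a difference of 0.612 points, -7.87 to 8.70) and 63.2% over all chromosomes. Of the 186 inhibitor peaks, 86 overlapped a DMSO peak, or 46.2%, against 55.5% in the rest (-9.29 points, -16.7 to -1.68) and 58.1% over all chromosomes. The other 100 inhibitor peaks lay on H3K4me2 in 61 cases, or 61.0% (51.2 to 70.0), against 44.2% of inhibitor-only peaks in the rest (40.4 to 48.0). Of the 61 peaks of the DMSO list alone, 17 lay on H3K4me2, or 27.9% (18.2 to 40.2), against 24.7% in the rest. The peaks of a single list were narrow, with medians of 319 bp for DMSO and 324 bp for inhibitor, against 686 bp for shared DMSO peaks.

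Among the inhibitor-only peaks, the highest were at chr19:53868890-53869268 in cluster 4 (fold 5.66) and chr19:44488120-44488401 in cluster 3 (fold 4.97), both on H3K4me2 without H3K4me1. The 1006 bp peak at chr19:37957566-37958571 in cluster 2 (fold 4.69) reached 2 H3K4me2 intervals. The peaks at chr19:56861926-56862078 in cluster 5 and chr19:23128457-23128639 in cluster 1 had neither mark, and the second of them was 125 kb from the nearest H3K4me2 interval. Among the DMSO-only peaks, the highest, at chr19:53601113-53601406 in cluster 4 (fold 5.37), lay on both marks within the H3K4me1 interval at chr19:53600619-53601997. That H3K4me1 interval had a fold of 15.5, the highest in the clusters, and sits inside the run of 9 H3K4me1 intervals given earlier. Other DMSO-only peaks were at chr19:57780980-57781156 on both marks, chr19:53927231-53927390 on H3K4me2 alone, and chr19:22130703-22130855 and chr19:36984048-36984225 on neither.

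**Figure D4:**
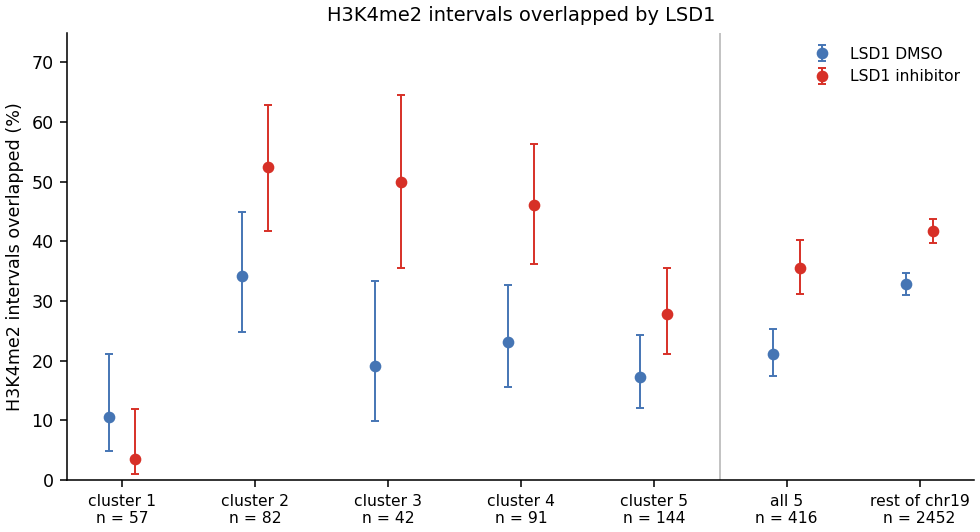
Percent of H3K4me2 intervals that overlapped an LSD1 peak with DMSO or with inhibitor, in each cluster, in all 5 and in the rest of chromosome 19; n is the number of H3K4me2 intervals and bars are 95% Wilson intervals that cover counting error only. The inhibitor point is the higher one in clusters 2 to 5 and in the rest (41.7 against 32.9%), and the lower one in cluster 1 (3.51 against 10.5%).

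Seen from H3K4me2, LSD1 was called on fewer intervals than in the rest with DMSO and came closer with inhibitor. With DMSO, 88 of 416 intervals overlapped LSD1, or 21.2%, against 32.9% in the rest (-11.7 points, -15.8 to -7.15) and 35.4% over all chromosomes. With a reciprocal overlap of 50% the DMSO difference was -1.80 points (-3.78 to 0.865), no longer beyond counting error. With inhibitor, 148 of 416 did, or 35.6%, against 41.7% in the rest (-6.14 points, -11.0 to -1.05) and 40.8% over all chromosomes. The gain on the same intervals was 14.4 points (9.56 to 19.2), from 87 intervals with LSD1 in the inhibitor list only and 27 in the DMSO list only. Another 61 had LSD1 in both lists, and 241 (57.9%) in neither. In the rest the gain was 8.85 points (6.92 to 10.8), so the gain in the clusters was larger by 5.57 points (0.342 to 10.7).

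The gain was spread unevenly over the clusters. In cluster 3, LSD1 was on 8 of 42 intervals with DMSO and 21 with inhibitor, a gain of 31.0 points (16.4 to 43.8) with 13 intervals gained and 0 lost. Cluster 4 went from 21 to 42 of 91 intervals, cluster 2 from 28 to 43 of 82 and cluster 5 from 25 to 40 of 144 (10.4 points, 2.26 to 18.5). Cluster 1 had 6 of 57 with DMSO and 2 with inhibitor, a difference of -7.02 points (-17.3 to 1.88), within counting error.

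This gain depended on what counts as overlap. It was 14.4 points with 1 shared bp, 4.33 points (0.453 to 8.24) when the centre of the LSD1 peak had to lie inside the H3K4me2 interval, and 1.68 points (-2.09 to 5.48) when the centre of the H3K4me2 interval had to lie inside the LSD1 peak. With a reciprocal overlap of 50% it was 0 (-2.93 to 2.93). This rule asks for like widths. Inhibitor-only peaks, on H3K4me2 or not, had a median width of 324 bp. The H3K4me2 intervals with LSD1 in the inhibitor list only had one of 1110 bp. The widths of the overlapping pairs themselves were not compared. With H3K4me2 intervals joined into sites it was 19.6 points (11.9 to 26.9), from 70 to 111 of 209 sites, against 12.3 points in the rest.

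The places of LSD1 centres within sites were counted next. With DMSO, 57 of 147 LSD1 centres lay inside an H3K4me2 interval and 10 in a gap between intervals of the same site (6.80%, 3.74 to 12.1). With inhibitor, 77 of 186 lay inside an interval and 32 in such a gap (17.2%, 12.5 to 23.3). The share in gaps was 10.4 points higher with inhibitor (3.31 to 17.2), while the share inside intervals differed by 2.62 points (-7.95 to 13.0). In the rest of the chromosome, 6.69% of DMSO centres and 11.6% of inhibitor centres lay in gaps. The inhibitor share was 5.61 points higher in the clusters than in the rest (0.553 to 11.9), and the DMSO share differed by 0.112 points (-3.28 to 5.51). More inhibitor centres lay in a site at all in the clusters, 58.6% against 48.4% in the rest. Of the centres in a site alone, 29.4% were in gaps with inhibitor, against 24.0% in the rest. With DMSO these shares were 14.9 and 17.1%, and no interval was computed for either difference. Peaks that reached 2 or more H3K4me2 intervals numbered 14 of 147 with DMSO (9.52%) and 35 of 186 with inhibitor (18.8%), against 11.6 and 16.5% in the rest. With inhibitor this differs from the rest by 2.31 points (-3.04 to 8.79), within counting error. Within the 145 H3K4me2 intervals of at least 1 kb, 22 of 37 DMSO centres were in the middle 40% of the interval (59.5%, 43.5 to 73.7) and 27 of 57 inhibitor centres (47.4%, 35.0 to 60.1), against 42.2 and 35.9% in the rest.

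**Figure D5:**
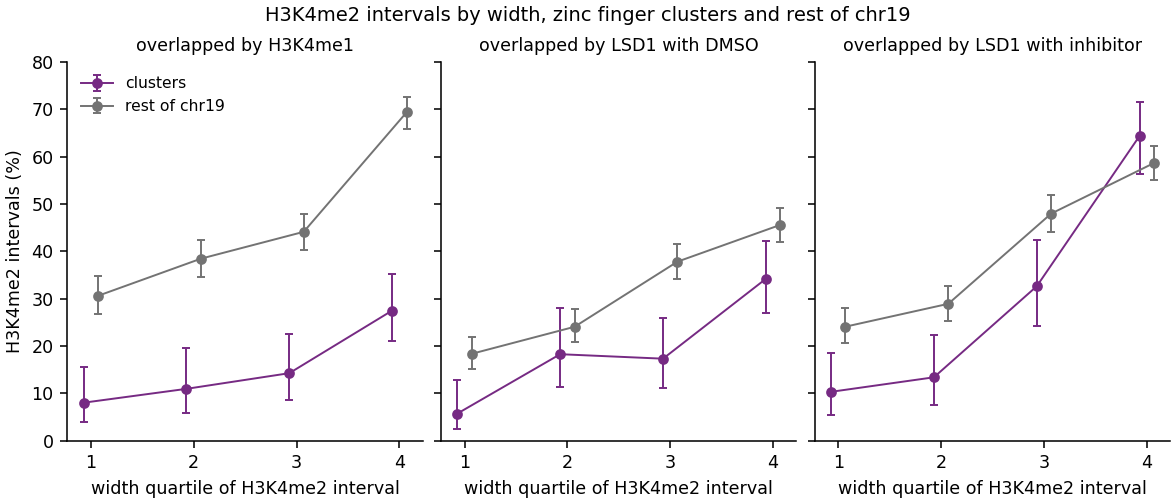
Percent of H3K4me2 intervals overlapped by H3K4me1, by LSD1 with DMSO and by LSD1 with inhibitor, by quartile of interval width (1 narrowest, 4 widest, quartiles of the whole H3K4me2 list), in the clusters and the rest of chromosome 19; bars are 95% Wilson intervals. The H3K4me1 points of the clusters lie below those of the rest at every width, and the widest cluster intervals reach 64.4% for LSD1 with inhibitor, above the point of the rest (58.7%).

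The gain was largest in the widest quartile of H3K4me2 intervals. With DMSO, LSD1 overlapped 5.75, 18.3, 17.3 and 34.2% of cluster intervals from the narrowest to the widest quartile, against 18.4, 24.1, 37.8 and 45.6% in the rest. With inhibitor, the shares were 10.3, 13.4, 32.7 and 64.4% (56.5 to 71.7), against 24.1, 28.9, 48.0 and 58.7%. In the widest quartile LSD1 went from 51 to 96 of 149 intervals, a gain of 30.2 points (20.8 to 38.7). The gain in the widest intervals of the rest was 13.1 points (9.18 to 16.9), which differs by 17.1 points (6.98 to 26.5). In the next quartile, from 411 to 968.5 bp, the gain was 15.3 points in the clusters (4.83 to 25.5) and 10.2 in the rest, while in the quartile from 230 to 411 bp the clusters had a difference of -4.88 points (-13.0 to 2.87). Over these and the narrowest quartile together the gain was 5.62 points in the clusters and 7.10 in the rest, a difference of -1.48 points (-7.24 to 4.32). These splits were made with the rule of 1 shared bp alone. In the highest quartile of −log10 q, 57 of 167 cluster intervals carried LSD1 under DMSO and 109 under inhibitor, a gain of 31.1 points (22.0 to 39.4), against a gain of 14.4 points (10.8 to 17.9) in the rest.

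The gain was also compared within intervals of like marks. Among H3K4me2 intervals without H3K4me1, LSD1 went from 18.6 to 34.2% of 345 in the clusters, a gain of 15.7 points (10.4 to 20.9), and from 26.8 to 39.7% in the rest, a gain of 13.0 points. These gains differ by 2.70 points (-3.22 to 8.56), which was not detectable at this number of intervals. Among the widest intervals without H3K4me1, LSD1 went from 32 to 70 of 108 in the clusters, a gain of 35.2 points (24.3 to 44.7) against 19.5 in the rest, a difference of 15.6 points (2.66 to 27.7). The 71 cluster intervals with H3K4me1 went from 33.8 to 42.3%, a gain of 8.45 points (-3.69 to 20.2).

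Intervals that had LSD1 with inhibitor were wider and stronger at the median than those without. The 61 with LSD1 in both lists had a median width of 1381 bp and a median −log10 q of 32.8, and the 87 with LSD1 in the inhibitor list only had 1110 bp and 25.8, with H3K4me1 on 13 of them. The 27 with LSD1 in the DMSO list only had a median width of 474 bp. The 241 without LSD1 had a median width of 342 bp and a median −log10 q of 7.92, and 50 of these lay in cluster 1 and 93 in cluster 5. Examples with LSD1 in the inhibitor list only were both the strongest and the widest H3K4me2 intervals of cluster 3, where the widest, at chr19:44437986-44440920, was 2935 bp long and had an LSD1 fold of 4.10. The widest intervals of cluster 4, at chr19:52641508-52643927 (2420 bp), and of cluster 5, at chr19:58836366-58840224 (3859 bp), had LSD1 in both lists. The strongest intervals of clusters 4 and 5, with folds of 24.3 and 23.7, were exceptions, overlapped by LSD1 of the DMSO list only. In clusters 3, 4 and 5 the LSD1 peak reached only an edge of the strongest interval. In cluster 5 that DMSO peak, at chr19:57702579-57703225, also overlapped an inhibitor peak that ended just before the interval. LSD1 was thus called in both lists at this place, and the label there rests on the rule of 1 shared bp.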

How the data were processed

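ChIP-seq peak lists of LSD1 (DMSO and inhibitor) and of H3K4me2 and H3K4me1 (DMSO), each from 1 library, were analysed. Groups were taken from the sample descriptions. BWA, Picard and MACS2 2.0 with build hg19 are named in the submitters' processing notes; no source used here gives the control, the handling of duplicates or the depth, so the precision that depth gives is unknown. The deposited score is 10 times the −log10 q. The deposited fold is a ratio over the caller's background. Deposited −log10 p and q values served within a list, to rank, filter and describe its peaks, and for the implied background. Deposited summit positions served only to count summits. The smallest deposited −log10 q was 1.00 and 1.01 in the LSD1 lists and 2.02 and 2.01 in the histone lists, so the LSD1 lists reach to weaker peaks. LSD1 lists have the broad layout and histone lists the narrow one, which affects widths and overlaps.

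Rows that repeat an interval for several summits were reduced to distinct intervals (178083 rows to 81619 for H3K4me2, 175135 to 94689 for H3K4me1), with the values of the highest-scoring row. Overlap means at least 1 shared bp. Python 3.11.15, pandas 2.3.3, numpy 2.4.6 and scipy 1.17.1 were used, and matplotlib 3.10.9 drew the plots. The search for overlaps and the intervals were tested on simulated data. Differences on the same H3K4me2 intervals allow for pairing of the values. Differences between the peak shares of the 2 LSD1 lists do not. Implied background is the background at which a peak's fold, with a pseudocount of 1, has its p-value. The members and lists were chosen with earlier results of these data known. Named regions are, per cluster, the highest-scoring interval of each list and the widest H3K4me2 interval, and over all clusters the 10 highest LSD1 peaks with DMSO and the 5 highest DMSO-only, inhibitor-only and unmarked ones; a few are given only by counts. Runs and empty stretches, windows, sites, and places of centres within sites were chosen after values were seen. Alternatives were stricter scores, other overlap rules, other comparison regions and leaving out each cluster. The gene table given is on GRCh38, so it was used for names and gene order only.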

Additional observations from a re-analysis of the deposited data

How the results depend on the processing

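Over 122 recalculations of 10 results, 97 stayed within the counting interval of the value given above, 25 moved beyond it and 0 reversed a called direction. Of the 97, 10 asked that an interval lie wholly inside a cluster, which removed none and could change nothing. LSD1 with DMSO on H3K4me2 and retained DMSO peaks had no called direction to reverse. Their differences from the rest did change sign under some settings, down to -6.66 and -10.4 points. Leaving out each cluster in turn gave density ratios of 0.350 to 0.647 for LSD1 with DMSO, 0.432 to 0.790 with inhibitor, 0.550 to 0.986 for H3K4me2 and 0.127 to 0.330 for H3K4me1, with the highest value without cluster 1 in each; the H3K4me2 share with H3K4me1 differed from the rest by -34.9 to -28.2 points, LSD1 with DMSO on H3K4me2 by -0.0460 to 7.58, on H3K4me1 by -20.5 to -18.3, H3K4me2 with LSD1 by -14.9 to -9.71, retained DMSO peaks by -3.17 to 5.00, and the gain was 12.0 to 17.8 points. Against only the flanks within 1 Mb the H3K4me2 density ratio was 0.597. A reciprocal overlap of 50% gave -5.48 points for LSD1 with DMSO on H3K4me1, -8.64 for H3K4me2 with H3K4me1, -1.80 (-3.78 to 0.865) for H3K4me2 with LSD1 with DMSO, and a gain of 0. Centres inside gave -12.4, -24.8 and a gain of 1.68, and LSD1 centres inside H3K4me2 gave -4.08 and a gain of 4.33. H3K4me2 joined over 2 kb gave -38.6 with H3K4me1, -17.0 with LSD1 and a gain of 19.6. The 50% highest scores gave -12.5 for LSD1 with DMSO on H3K4me1 and -10.4 for retained peaks; a −log10 q of 2 or more gave -6.66 for LSD1 with DMSO on H3K4me2 and -8.72 for retained peaks, all with the rest compared likewise. The cause of these shifts was not tested. With LSD1 lists of equal length the gain was 11.5 points, and with a −log10 q of 2 or more 19. That cut lies above the median −log10 q of the DMSO list (1.95) and below that of the inhibitor list (2.88). It thus removes a larger share of the DMSO list, and the 19 points cannot be set against the 11.5. No pairing of replicate libraries was possible because there is only 1 library of each kind. With no replicate, spread between cultures is unknown, and a missing peak may be signal under the caller's threshold. The empty stretch at chr19:24218142-27789556, of which 3.39 Mb lie outside cluster 1, holds the unsequenced centromere as background knowledge has it; leaving it out gave ratios of 0.187 to 0.613.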
